A study of Mus musculus with 6 samples.

Results

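The miR-146 family was followed in left ventricles of mice given sunitinib, a tyrosine kinase inhibitor used against cancer, and of mice given vehicle. The members were taken by name: the array features named mmu-miR-146a-5p, mmu-miR-146a-3p and mmu-miR-146b-5p, which are 3 of the 1881 mouse microRNAs (miRNAs) on the array, 6 of its 4415 probes and 90 of its 56430 spots per array. All animals were male C57BL/6 mice, and each of the 3 sunitinib and 3 control samples was read on an Agilent mouse miRNA array of its own, with the dye Cy3 as the single colour. The labels used here give no dose, duration or age. They do not tie each sample to a separate animal either, so the spread that p-values measure here may be technical. The title of the series names miR-146a and its downregulation, so the direction seen for it here is not independent evidence. Since the tissue is a mixture of cells, fewer cells of a type and less RNA per cell cannot be told apart.

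MicroRNAs are short RNAs that pair through bases 2 to 8, the seed, with messenger RNAs and lower their output. Transcription of the miR-146a gene is switched on by the transcription factor NF-kB after Toll-like receptor or cytokine signalling. The mature miRNA represses Traf6 and Irak1, signalling molecules that carry the signal from those receptors to NF-kB. The family is therefore known as a negative feedback on inflammation, in leukocytes and endothelial cells among others. The miR-146b hairpin comes from another gene, and its 5p arm carries the same seed. The 3p arm of miR-146a comes from the other side of the hairpin and is usually the scarcer strand.

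The mature sequences are shown because they set what each probe could read. They are from RefSeq (GRCm38.p6), run 5′ to 3′, and have the seed in capitals; all 3 members matched the table by name.
miR-146a-5p: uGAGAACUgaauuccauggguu
miR-146b-5p: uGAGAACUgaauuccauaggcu
miR-146a-3p: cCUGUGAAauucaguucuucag
The seed GAGAACU was carried by 2 of the 1679 mature mouse miRNAs in the table, which are miR-146a-5p and miR-146b-5p. These share 20 of 22 bases and differ by G18A and U21C (base of miR-146a-5p, position from 1 at the 5′ end, base of miR-146b-5p). The bases that tell them apart lie outside the seed, near the 3′ end.

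The hairpins show where the arms lie, with the mature arms in capitals.
Mir146, chromosome 11, minus strand: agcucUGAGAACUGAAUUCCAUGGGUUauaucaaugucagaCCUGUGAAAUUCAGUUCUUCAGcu
Mir146b, chromosome 19, plus strand: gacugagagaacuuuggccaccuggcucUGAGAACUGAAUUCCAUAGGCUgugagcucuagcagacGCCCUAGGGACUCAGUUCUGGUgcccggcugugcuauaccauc
In the RefSeq gene table (GRCm38.p6), Mir146 lies between the protein-coding genes Atp10b and Pttg1, and Mir146b lies within the long non-coding RNA gene Gm36493, between Cuedc2 and Mfsd13a. Both hairpins belong to miRNA genes outside protein-coding sequence. The array files map the miR-146a-5p probes to chromosome 11, 43187908 to 43187925, the miR-146a-3p probes to chromosome 11, 43187944 to 43187961, and the miR-146b-5p probes to chromosome 19, 46417284 to 46417301 (mm9). These intervals hold 1 base fewer than the probes, and on chromosome 11 they place the 5p arm at the lower coordinates, the opposite of what the minus strand in RefSeq gives, so they serve to place the locus only.

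Each member was read by 2 DNA probes, of 19 and 18 bases, each printed as 15 spots per array. The probes of the 5p members are shown because they have to tell apart miRNAs of nearly the same sequence, and capitals mark the bases in which they differ.
miR-146a-5p, 19 bases: aAccCatggaattcagttc
miR-146b-5p, 19 bases: aGccTatggaattcagttc
miR-146a-5p, 18 bases: aAccCatggaattcagtt
miR-146b-5p, 18 bases: aGccTatggaattcagtt
The longer probes are complementary to bases 4 to 22 of their miRNA and the shorter ones to bases 5 to 22. Between the miR-146a-5p and miR-146b-5p probes the differences are A2G and C5T, counted from 1 at the probe's 5′ end, and none of the 6 probes is an exact match to another member. Whether RNA of one 5p member binds the other's probes was not tested by any sample in this series.

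All 5 heart muscle miRNAs on a marker list (miR-1a-3p, miR-133a-3p, miR-208a-3p, miR-208b-3p and miR-499-5p) were well above background on all 6 arrays, as a sample of heart should have them. "Well above background" is the scanner software's own mark on a spot, set per the file headers at 13 background SDs over the background, and a probe has it here if at least 50% of its kept spots do. Sunitinib arrays had 234 to 242 miRNAs well above background and control arrays 237 to 252. No spot was saturated. All arrays lay on 1 slide: sunitinib replicates 1 and 2 in its row 1, and sunitinib replicate 3 with the 3 control samples in its row 2. The 237 miRNAs that had this mark on every array of one group or both were compared by limma with Benjamini-Hochberg adjustment, and 4 were lower and 4 higher in sunitinib at an adjusted p of 0.05 (1.69% in each direction).

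miR-146a-5p, the strand that carries the family's seed, was the only member well above background, and on all 6 arrays. Its 19-base probe had a scaled intensity of 83.4, 97.6 and 83.7 in sunitinib replicates 1 to 3, against 153, 269 and 139 in control replicates 1 to 3. The sunitinib arrays lay close together and below every control array, and control replicate 2 stood well above the other controls. On the log2 scale, which averages the spots after taking logs, the levels were 6.38, 6.61 and 6.38 in sunitinib and 7.25, 8.07 and 7.12 in control. The means were 6.46 ± 0.13 in sunitinib and 7.48 ± 0.52 in control (SD, n = 3 each). The log2 change was -1.02 (limma SE 0.25, limma 95% interval -1.63 to -0.42), or 2.03-fold lower in sunitinib. The limma SE and interval borrow spread from all tested miRNAs. The residual SD of miR-146a-5p alone was 0.38, and an interval from it would be wider.

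This change did not pass the threshold over all tested miRNAs (limma adjusted p = 0.093). An exact two-sided permutation test of the 6 values gave p = 0.1, the smallest that 3 against 3 samples allow. All 3 sunitinib arrays lay below all 3 control arrays, as they did for 22 of the 237 tested miRNAs (9.28%). Among miRNAs well above background in both groups, only miR-223-3p had a lower measured change, and miR-511-3p, not well above background on any sunitinib array, had a lower one outside them. By unadjusted limma p miR-146a-5p ranked 15. It was among 20 miRNAs (8.44%) that were lower at an unadjusted limma p under 0.05. The spread of the controls was wide: their SD of 0.52 was the fifth largest among the 237 miRNAs, whose median control SD was 0.08. In sunitinib the SD of 0.13 was at the median of all tested miRNAs, also 0.13.

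Without control replicate 2 the log2 change of miR-146a-5p was -0.73 (SE 0.11, limma adjusted p = 0.058), and leaving out any other sample gave -1.21 to -0.98. Slide row and treatment overlap in this design. The arrays of row 1, sunitinib replicates 1 and 2, also lay further from their group mean across miRNAs. Their median absolute deviations were 0.100 and 0.113, against 0.050 to 0.061 on the arrays of row 2. Within row 2, which holds sunitinib replicate 3 and all controls, the change was -1.10 (limma adjusted p = 0.241), where the lone sunitinib array is assumed to vary like the controls. With the row as a block in the fit of all arrays it was -1.10 (SE 0.39, limma adjusted p = 0.506). Row 1 has no control array, so this estimate is the same contrast as that within row 2 and adds nothing to it. The sunitinib array of row 2 had a log2 level of 6.38, and the sunitinib arrays of row 1 had 6.38 and 6.61.

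**Figure D1:**
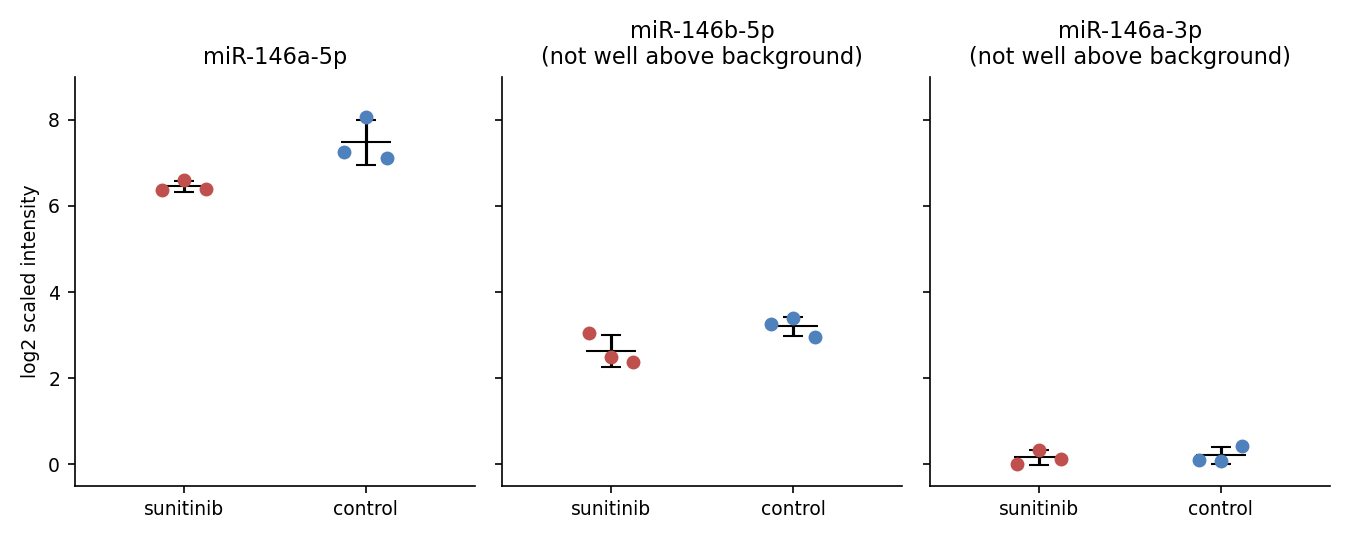
log2 scaled intensity of the brighter probe of each member, with a point per array and the mean with its SD (n = 3 each) as bars, sunitinib left of control. For miR-146a-5p every sunitinib array lies below every control array, while for miR-146b-5p and miR-146a-3p, neither well above background on any array, the groups overlap; heights are not comparable between panels, since each probe has its own response.

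The spots of a probe are technical repeats within an array and show how precisely each array read miR-146a-5p. For the 19-base probe, 43 spots in sunitinib and 45 in control remained after spots marked as outliers were left out, and all were well above background. Their coefficient of variation within an array was 6.04% to 8.25%. The highest spot on any sunitinib array read 108 (replicate 2) and the lowest on any control array 119 (control replicate 3), so that no spot of one group reached the other. The difference of control replicate 2 from the other controls was likewise far larger than the spot spread: its spots read from 245 to 296, against a highest spot of 166 in control replicate 1 and 155 in control replicate 3.

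The 18-base probe of miR-146a-5p read 12.5, 13.1 and 12.8 in sunitinib replicates 1 to 3, against 30.5, 49.2 and 25.9 in control replicates 1 to 3. The sunitinib arrays were again nearly equal and control replicate 2 was again the highest. This probe was dimmer, with 24 of 43 spots well above background in sunitinib and 43 of 44 in control, and as a probe it had the mark on all control arrays and on sunitinib replicates 1 and 3, not on replicate 2. Its log2 means were 3.63 ± 0.02 in sunitinib and 5.06 ± 0.50 in control (SD, n = 3 each).

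In a fit across the 419 probes with the mark throughout one group or both, the 18-base probe changed by -1.43 (SE 0.23) and passed the threshold (limma adjusted p = 0.029), whereas the 19-base probe had -1.02 (SE 0.25, limma adjusted p = 0.088). The 18-base probe entered that fit through the control group alone, where it is high, so its call is a description of a probe read near background in sunitinib. In that fit 1.91% of the probes were lower in sunitinib and 1.67% higher. The probes of this miRNA thus moved the same way but by unequal amounts. The 19-base probe read 6.66, 7.47 and 6.53 times the 18-base probe in sunitinib replicates 1 to 3, against 5.01, 5.48 and 5.36 times in control replicates 1 to 3. These ratios did not overlap between groups; their difference was not tested, and the 18-base probe lay near its background in sunitinib.

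**Figure D2:**
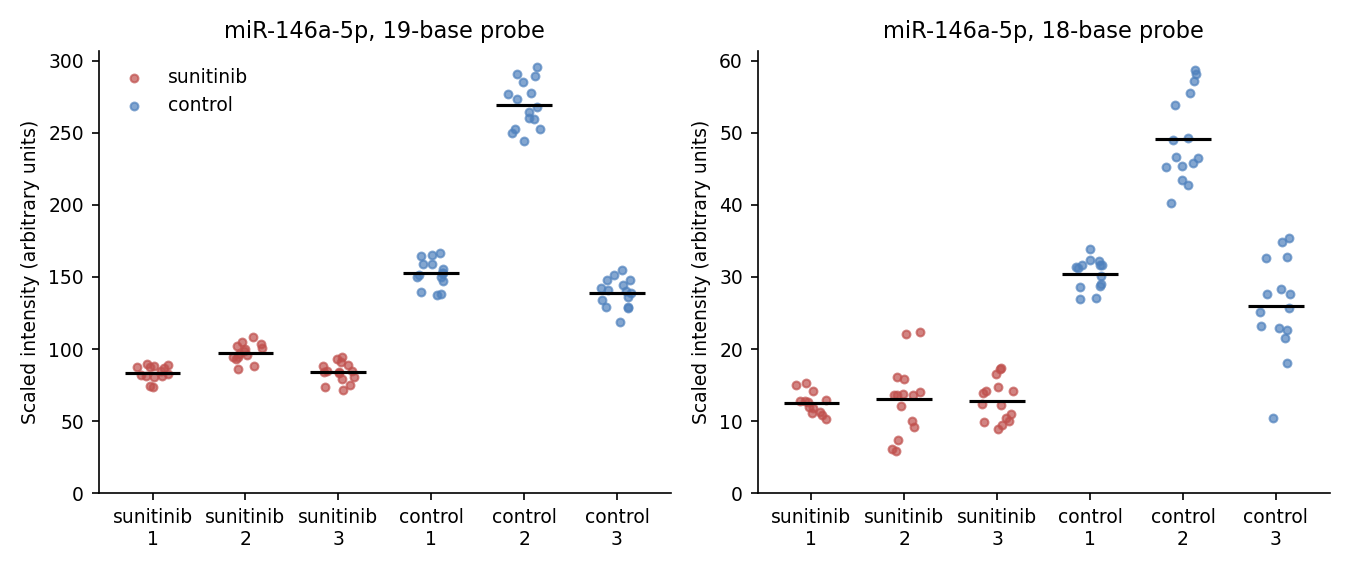
Scaled intensity of each spot (points) and the mean of each array (black line) for the 19-base probe (left) and the 18-base probe (right) of miR-146a-5p; intensity axes start at 0 and differ between panels. For the 19-base probe all sunitinib spots lie below all control spots, with a gap from 108 to 119, while for the 18-base probe some spots of the groups overlap.

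The authors' deposited value table, whose scale and centring are unknown, gave miR-146a-5p log2 values of 5.13, 5.18 and 5.04 in sunitinib replicates 1 to 3, against 6.18, 6.81 and 5.98 in control replicates 1 to 3. The groups did not overlap there either, and control replicate 2 was again the highest. The means were 5.12 ± 0.07 in sunitinib and 6.32 ± 0.43 in control (SD, n = 3 each). The log2 change was -1.21 (SE 0.20), or 2.31-fold lower in sunitinib. It passed when the 237 miRNAs above were tested (limma adjusted p = 0.021, with 2.11% of them lower and 1.69% higher) and not when all 1881 were (limma adjusted p = 0.095, with 0.159% lower). The call thus turned on how many miRNAs were tested, while the measured change was the same.

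**Figure D3:**
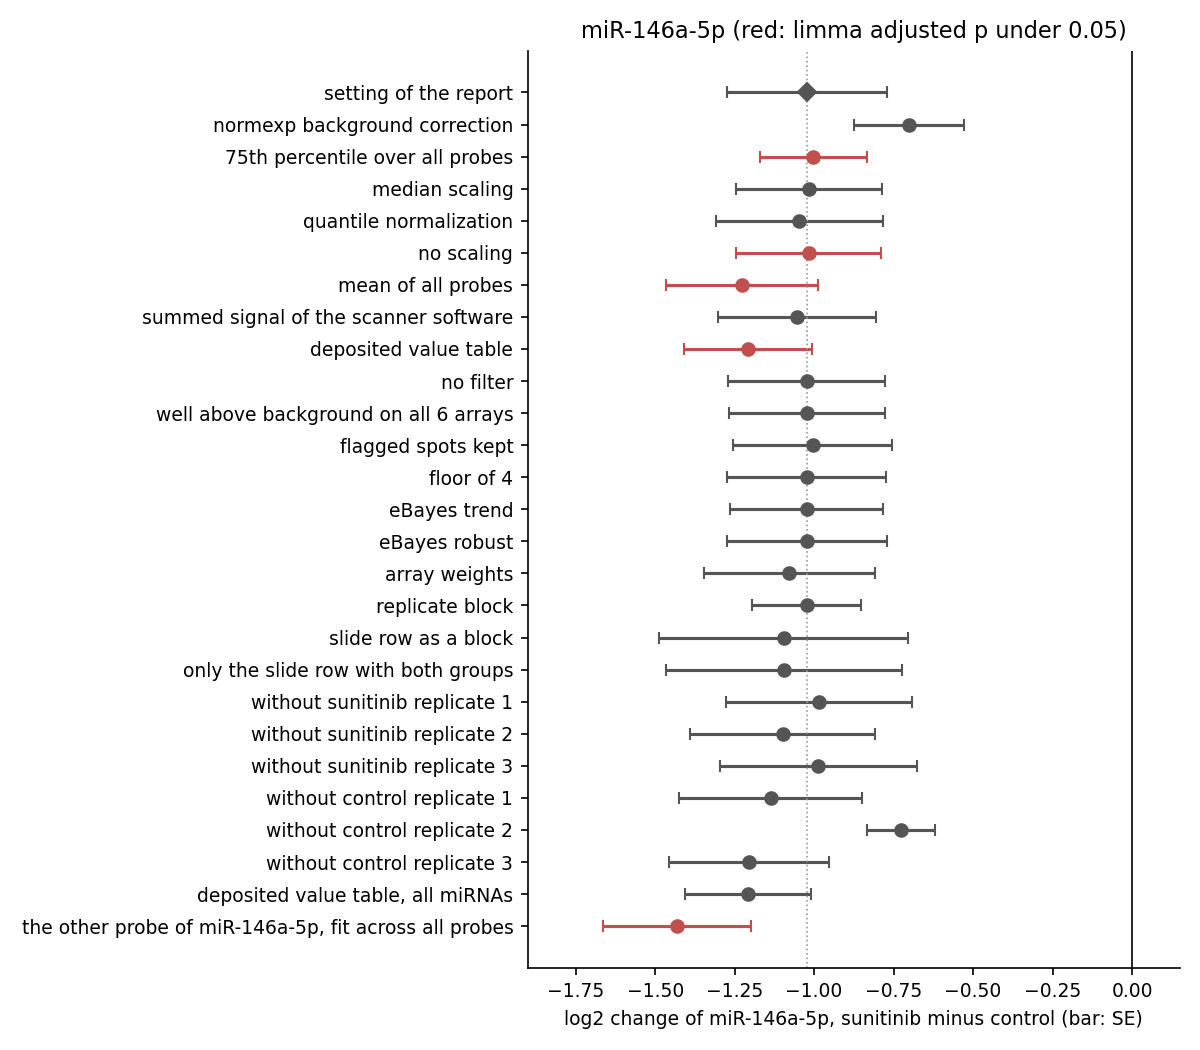
log2 change of miR-146a-5p (sunitinib minus control; point with SE as a bar) under the processing used here (diamond) and each of 26 alternatives, red where the limma adjusted p was under 0.05. All points lie below 0, from -1.43 to -0.70, and 5 of the 26 are red. The point at -0.70 is normexp, which adds an offset of 50 to every intensity and so makes log2 changes smaller. The alternatives are not independent, since the filter, the variance model and the replicate block could not move the change.

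miR-146b-5p, which shares the seed of miR-146a-5p, was not well above background on any array. Its 19-base probe read 8.50, 5.93 and 5.43 in sunitinib replicates 1 to 3, against 9.69, 10.66 and 8.04 in control replicates 1 to 3. Sunitinib replicate 1 lay within the range of the controls, so the groups overlapped. Of its spots, 2 of 45 were well above background in sunitinib, both on replicate 1, and 7 of 44 in control, of which 6 were on replicate 2 and 1 on replicate 1. All its kept spots read above 0, from 2.87 upwards in sunitinib and from 4.63 upwards in control.

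The 18-base probe of miR-146b-5p had 0 of 43 spots in sunitinib and 0 of 45 in control well above background, with array means from 0.15 to 0.69 in sunitinib and from 0.62 to 1.95 in control. The log2 means of the brighter probe were 2.63 ± 0.36 in sunitinib and 3.20 ± 0.23 in control (SD, n = 3 each). In the deposited value table the log2 means were 2.58 ± 0.16 in sunitinib and 2.82 ± 0.08 in control (SD, n = 3 each). Since miR-146b-5p was not well above background in either group, no fold and no test are given for it.

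miR-146a-3p, the other strand of the miR-146a hairpin, gave no spot well above background: 0 of 45 in sunitinib and 0 of 43 in control for the 19-base probe, and 0 of 44 in each group for the 18-base probe. The array means of its 19-base probe were -0.98, -1.84 and -0.54 in sunitinib replicates 1 to 3, against -0.62, -1.17 and -0.66 in control replicates 1 to 3, that is, at or under the local background that the scanner software subtracts. The values have no order, and the groups overlapped. The floored log2 means were 0.16 ± 0.17 in sunitinib and 0.20 ± 0.20 in control (SD, n = 3 each), and no fold or test is given. In the deposited value table the log2 means were 2.13 ± 0.03 in sunitinib and 2.16 ± 0.05 in control (SD, n = 3 each). Of this hairpin the arrays thus measured the 5p strand alone.

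Other miRNAs reported to be switched on by NF-kB were taken from a list of 10, and their induction was not tested here. Of these, 4 were well above background and tested. The other 6 (miR-155-3p, miR-21a-3p, miR-132-5p, miR-212-5p, miR-9-5p and miR-147-3p) were well above background on no array. None of the 4 passed the threshold, and their median log2 change was -0.27, beside a median of 0.02 over all 237 tested. miR-155-5p, which promotes inflammatory responses in macrophages and lymphocytes, had log2 means of 6.77 ± 0.04 in sunitinib and 6.62 ± 0.05 in control (SD, n = 3 each; change 0.15, limma adjusted p = 0.246). Its sunitinib arrays lay above every control array, as for 18.1% of all tested miRNAs, which is the opposite side from miR-146a-5p.

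miR-132-3p and miR-212-3p, which come from the same gene cluster, had log2 changes of -0.35 (SE 0.19) and -0.45 (SE 0.17), with limma adjusted p of 0.359 and 0.246. miR-21a-5p, a miRNA abundant in fibroblasts, had -0.19 (SE 0.15, limma adjusted p = 0.588). For these 3 the groups overlapped. With the normexp background correction the median of the 4 was -0.11. That correction added an offset of 50 to every intensity, which by itself makes log2 changes smaller, most of all for dim probes.

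A second list held 11 miRNAs reported to act on the NF-kB pathway, and all 11 were tested. The roles given here were reported largely in human cells. miR-223-3p, a myeloid miRNA reported to repress the kinase IKKα, was lower in sunitinib, with log2 means of 6.996 ± 0.08 in sunitinib and 8.32 ± 0.13 in control (SD, n = 3 each; change -1.32, SE 0.09, limma adjusted p = 0.00086). The other 10 did not pass. The list's median was -0.05. miR-15a-5p and miR-16-5p, reported against the same kinase, had -0.02 each. miR-199a-5p, reported against IKKβ, had -0.07 and miR-199a-3p, the other strand of its hairpin, had -0.08. miR-10a-5p, reported to restrain NF-kB in endothelium, had 0.19 and miR-181b-5p, reported to limit its entry into the nucleus, had -0.05, with -0.15 for its relative miR-181a-5p. miR-125a-5p and miR-125b-5p, reported against the NF-kB inhibitor TNFAIP3, had -0.15 and 0.07, and miR-301a-3p, reported against the NF-kB repressor NKRF, had 0.10. On both lists, miR-223-3p alone had a log2 change as large as that of miR-146a-5p.

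**Figure D4:**
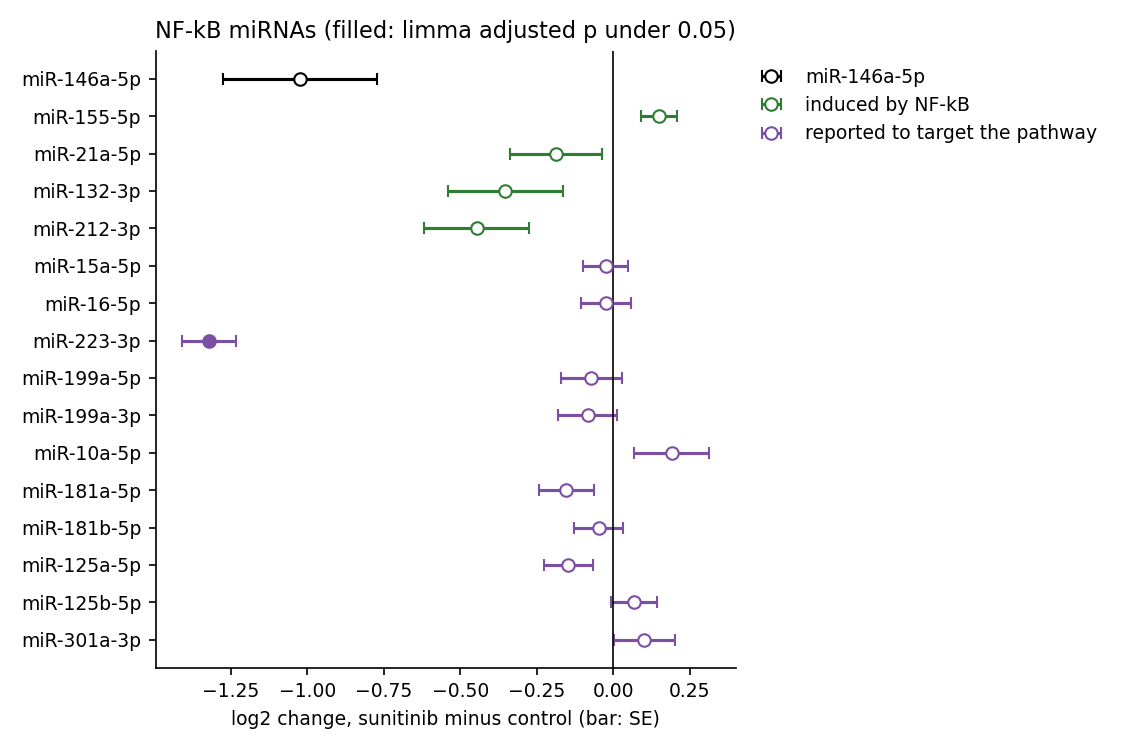
log2 change (sunitinib minus control, with SE as a bar) of miR-146a-5p, of the 4 tested miRNAs reported as NF-kB-induced and of 11 reported to target the pathway. Filled points passed a limma adjusted p of 0.05, which holds for miR-223-3p; miR-146a-5p at -1.02 has the largest SE of those shown, 0.25.

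Marker miRNAs of the other cell types in heart tissue were read beside miR-146a-5p. Of 8 leukocyte miRNAs, 6 were tested and 3 were lower in sunitinib, beside 1.69% of all tested miRNAs: miR-223-3p, miR-142a-3p, found in all blood-forming lineages (-0.64, limma adjusted p = 0.020), and miR-511-3p, which lies in the gene of a macrophage receptor and was well above background on 0 of 3 sunitinib and 3 of 3 control arrays (limma adjusted p = 0.0024). miR-511-3p was thus tested through the control group alone, where it is high, and its call adds no support. All 3 are themselves among the 4 miRNAs behind the 1.69%, and the list was chosen with earlier results of these data known. The count and that share are therefore not independent, and the count is a description only. The other tested ones did not pass: miR-150-5p had 0.35, miR-155-5p 0.15 and miR-342-3p -0.01. miR-142a-5p and miR-511-5p were well above background on no array. The summed scaled level of the 8 was 685, 606 and 679 in sunitinib replicates 1 to 3, against 847, 916 and 834 in control replicates 1 to 3, so it was lower on every sunitinib array and highest on control replicate 2, the array with the highest miR-146a-5p. Of single tested miRNAs, 9.28% were lower on every sunitinib array, a share that holds for single miRNAs and not for sums. miR-223-3p had the highest control log2 mean of the list, 8.32, and a log2 change of -1.32. It therefore weighs most in the control sums, which do not speak for the list as a whole. No sum without miR-223-3p was taken. The part of leukocytes in the level of miR-146a-5p was not tested.

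The other marker lists did not separate the groups in this way. The summed level of both endothelial miRNAs (miR-126a-3p and miR-126a-5p) ran from 9880 to 10348 in sunitinib and from 9859 to 10822 in control. That of 4 erythroid miRNAs ran from 4518 to 4773 in sunitinib and from 3456 to 4993 in control, with control replicate 2 the lowest. That of the 5 heart muscle miRNAs ran from 89897 to 94422 in sunitinib and from 83973 to 92418 in control. Within that list miR-208b-3p, which lies in the gene of the slow myosin heavy chain Myh7, had log2 means of 6.28 ± 0.95 in sunitinib and 5.03 ± 0.62 in control (SD, n = 3 each). Its change of 1.25 (SE 0.53, limma adjusted p = 0.263) was larger in size than that of miR-146a-5p, and its groups overlapped. None of the 11 miRNAs on these 3 lists passed the threshold.

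The tested miRNAs whose pattern over the 6 arrays was most like that of miR-146a-5p were found by the root mean square difference of log2 levels, each centred on its own mean. miR-223-3p was nearest, at 0.28, followed by miR-532-5p at 0.35, miR-142a-3p at 0.35, miR-127-3p at 0.37 and miR-154-5p at 0.39. The median over the other 236 tested miRNAs was 0.62, and a miRNA flat over the 6 arrays would lie at 0.60. miR-223-3p had log2 levels of 7.04, 7.04 and 6.91 in sunitinib replicates 1 to 3, against 8.26, 8.47 and 8.22 in control replicates 1 to 3. All 5 were lower on every sunitinib array than on any control array (9.28% of all tested miRNAs were), and all 5 had their highest level on control replicate 2. Both follow from choosing them for likeness to miR-146a-5p, which has these features, and are a description only. For miR-154-5p, no sunitinib array was well above background. The measure favours miRNAs with a change of like size, and all points share the same 6 arrays.

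**Figure D5:**
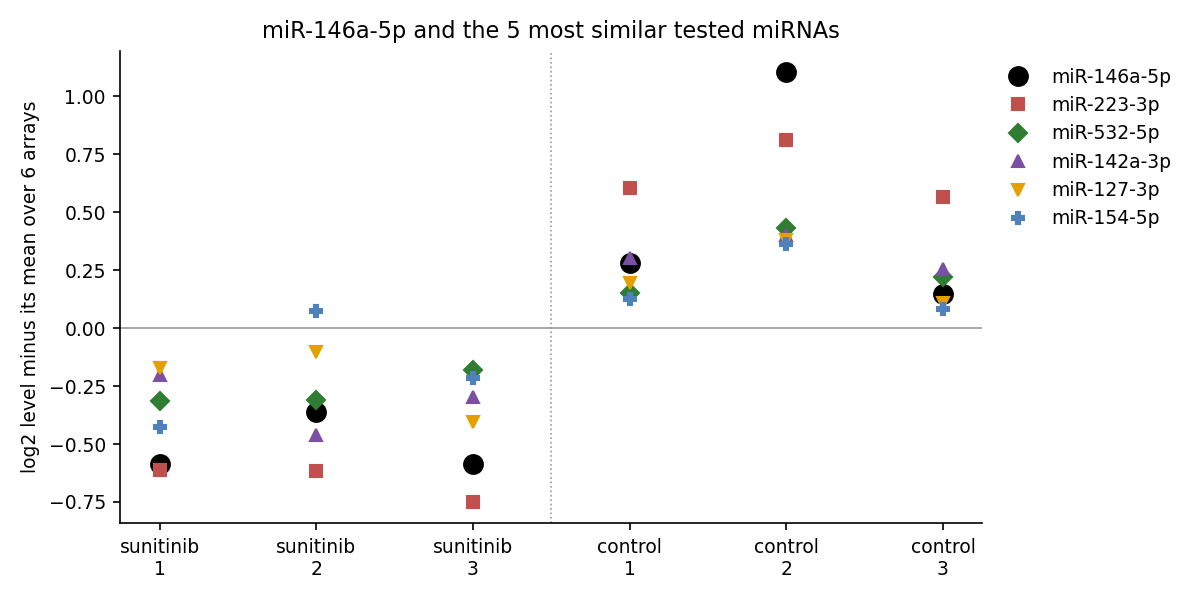
log2 level minus the miRNA's own mean over the 6 arrays for miR-146a-5p (black circles) and the 5 tested miRNAs with the most similar pattern, sunitinib arrays left of the dotted line and control arrays right of it. All 6 miRNAs are highest on control replicate 2, where miR-146a-5p stands 1.10 above its mean.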

How the data were processed

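Total RNA of left ventricle in 3 sunitinib and 3 control samples was measured on 1-colour Agilent miRNA arrays, and groups came from the sample titles. The deposited scanner files hold spot intensity, background-subtracted per the file headers by Agilent Feature Extraction, given as version 10.7 in the submitters' processing notes. The deposited value table holds log2 values processed by the authors, and its scale and centring are not stated in these sources. Its column medians were 2.199, 2.200 and 2.196 in sunitinib and 2.196, 2.195 and 2.196 in control replicates 1 to 3, and each column matched its own array best.

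Control spots and spots marked as outliers were left out. Each array was scaled to a common 75th percentile, taken over the 393 probes that passed the background mark on every array. Values under 1 were set to 1, log2 was taken, and the spots of a probe were averaged. A miRNA was represented by its brightest probe. limma 3.58.1 (lmFit, eBayes) in R 4.3.3 was fitted over all tested miRNAs and tested on simulated data. The number of arrays limits the precision. Alternatives changed the scaling, the background correction, the filter, the floor, how probes were summarised, the variance model, array weights and blocks, and left out each sample in turn. Members, lists and the rule for named miRNAs (members, list members and the 5 nearest patterns) were chosen with earlier results of these data known. Sequences and neighbouring genes are from RefSeq tables (GRCm38.p6).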

Additional observations from a re-analysis of the deposited data

How the results depend on the processing

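The log2 change of miR-146a-5p lay below 0 in all 26 alternatives run, from -1.43 to -0.70, and its limma adjusted p ran from 6.9e-05 to 0.506. It passed the threshold in 5: unscaled (-1.017), scaled to the 75th percentile of every probe (-1.002), averaged over its probes (-1.23), by its 18-base probe (-1.43) and in the deposited value table (-1.21). Scaling to the percentile of every probe gave the lowest limma adjusted p, 6.9e-05. Between 10.94% and 11.98% of spots per array were well above background. That percentile was therefore set by probes not well above background, and its pass adds no support. The 18-base probe was tested through the control group alone, where it is high, and without it the lowest change was -1.23. Leaving out a sample gave -1.21 to -0.73, which had to stay below 0 because the groups did not overlap. The change of -0.70 came with normexp, whose added offset of 50 by itself makes log2 changes smaller. The filter, the floor, the variance model and the replicate block left the change at -1.02. The deposited value table entered both filtered and whole. The 26 alternatives are therefore not independent of each other. Against 4 higher and 4 lower miRNAs, array weights called 6 higher and 7 lower, averaged probes 4 and 7, the percentile of every probe 8 and 5, quantile normalization 0 and 4, unscaled values 1 and 3, row 2 alone 1 and 3, an unfiltered fit 0 and 3, normexp 2 and 2, the summed signal 1 and 1, and a slide row block 0 and 1. The whole deposited value table, an alternative chosen after seeing the data, called 0 and 3. Fits short of a single sample called 0 to 5 higher and 2 to 3 lower. Replicate numbers are shared by the groups but the labels tie them to nothing, and deviations of same-numbered samples correlated across the 237 miRNAs at 0.18, 0.22 and -0.06. With the replicate block 0 were higher and 2 lower, and miR-146a-5p had -1.02 (limma adjusted p = 0.151). The causes of these shifts were not tested.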

Other observations

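The scanner software also gives each miRNA a summed signal over its probes, and for miR-146b-5p that value did not come from its own probes alone. On the arrays where the software marked miR-146b-5p as detected, the summed signal was 24.8 in sunitinib replicate 1, against 45.2 in control replicate 1 and 72.9 in control replicate 2. The summed signals of its own probes there were 2.06 in sunitinib replicate 1, against 2.73 in control replicate 1 and 2.498 in control replicate 2. The summed signal of miR-146a-5p was 22.8 in sunitinib replicate 1, against 42.9 in control replicate 1 and 70.5 in control replicate 2. On these 3 arrays the value given to miR-146b-5p equalled its brighter probe plus the summed signal of miR-146a-5p to within 0.00013%. On the other 3 arrays, where the software did not mark it as detected, it was 0.80 and 0.75 in sunitinib replicates 2 and 3, against 0.70 in control replicate 3. For miR-146a-5p the summed signal was that of its own probes on all 6 arrays. Of 332 miRNAs marked as detected on at least 1 array, 119 had a summed signal over 2 times the sum of their own probes on at least 1 such array. The cause was not tested, and levels above were therefore taken from probes.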
